A study of Mus musculus with 84 samples.

Results

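The Rag GTPase and mTOR complex genes are 10 genes of the machinery by which a cell matches growth to its supply of amino acids. They are the 4 Rag GTPase genes Rraga, Rragb, Rragc and Rragd, the folliculin gene Flcn, the kinase gene Mtor, the scaffold genes Rptor and Rictor, and the tuberous sclerosis genes Tsc1 and Tsc2. They were picked by name, because Rragb was among the genes that had fallen most after DOI, out of the 55401 gene IDs in the count files. The measured values that chose the members are therefore those of Rragb, which are given below as a description with no test. All 10 members were among the 17941 genes that passed the filter on low counts.

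The libraries came from nuclei sorted for NeuN, a protein of neuronal nuclei, out of the frontal cortex of 129S6/SvEvTac mice aged 12 weeks. The control group had received vehicle. The other 3 groups had received 2,5-dimethoxy-4-iodoamphetamine (DOI), a psychedelic agonist of serotonin 2A receptors, and were sampled 24 h, 48 h or 7 days later. Each group had 4 mice with 2 libraries each, whose counts were added together, so that n counts mice. All 3 DOI groups were set against the same 4 vehicle mice, so the comparisons share their controls.

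Rag GTPases work as pairs of unlike partners on the surface of the lysosome: RagA or RagB binds RagC or RagD. When amino acids are plentiful, the pair holds mTOR complex 1 on the lysosome by its scaffold raptor, where the small GTPase Rheb switches the kinase on. The TSC complex, formed by the products of Tsc1 and Tsc2, turns Rheb off, and folliculin acts on RagC and RagD as a GTPase-activating protein. mTOR also works in complex 2, whose scaffold is rictor and which phosphorylates kinases such as Akt. In neurons the pathway is known for its control of protein synthesis, dendrite growth and synaptic plasticity, and among the paralogs RagB is the one known for its expression in brain.

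Promoter sequence is shown for Rraga, Rragb and Rragc, because the number of copies of CACGTG differed among the Rag genes. The Rragb window held 3, the Rragc window 1 and the Rraga and Rragd windows 0. CACGTG is the core of the site bound by the MiT/TFE transcription factors, which Rag GTPases hold at the lysosome. It reads the same on both strands. The windows run from 250 bases before to 10 bases after the transcription start in RefSeq (assembly GRCm38.p6), were found for all 10 members, and are printed 5′ to 3′ on the gene's own strand, with each CACGTG in capitals. Rragb lies at chrX:153139708-153139967 on the plus strand, Rragc at chr4:123917183-123917442 on the plus strand and Rraga at chr4:86575423-86575682 on the plus strand.
Rragb: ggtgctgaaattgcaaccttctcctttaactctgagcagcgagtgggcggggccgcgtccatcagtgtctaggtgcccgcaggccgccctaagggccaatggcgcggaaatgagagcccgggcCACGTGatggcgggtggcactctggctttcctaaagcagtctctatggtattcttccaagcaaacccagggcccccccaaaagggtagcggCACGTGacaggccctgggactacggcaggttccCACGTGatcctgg
Rragc: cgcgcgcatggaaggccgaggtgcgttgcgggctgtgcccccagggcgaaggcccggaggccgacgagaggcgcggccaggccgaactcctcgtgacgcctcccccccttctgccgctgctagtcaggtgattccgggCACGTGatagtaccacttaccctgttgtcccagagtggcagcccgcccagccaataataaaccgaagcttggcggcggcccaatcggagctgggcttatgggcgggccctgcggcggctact
Rraga: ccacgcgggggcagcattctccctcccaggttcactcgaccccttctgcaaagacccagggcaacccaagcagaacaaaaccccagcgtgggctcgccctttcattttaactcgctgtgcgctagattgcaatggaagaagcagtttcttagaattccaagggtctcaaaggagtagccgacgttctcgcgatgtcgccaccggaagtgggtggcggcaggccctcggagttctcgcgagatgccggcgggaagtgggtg

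The Rragb window held CACGTG 3 times, with first bases at -127, -36 and -3 from the start, and the Rragc window held it once, at -112. None of the other 8 members had it in the window. Of 32851 such RefSeq windows, 2084 (6.34%) had at least 1 copy and 24 (0.0731%) had at least 3. A match describes the letters in this window and says nothing about binding in these nuclei.

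In vehicle nuclei, the RagA and RagB genes had the highest levels per length of the 10, and the raptor gene had the lowest. Levels per length are RPKM here, the normalised level (CPM, counts scaled to a common library total) divided by exon length in kilobases. Rragb was at 51.7 ± 9.09 RPKM (SD, n = 4) and Rraga at 48.4 ± 11.5 RPKM, and their ranges overlapped. Flcn followed at 31.0 ± 3.59 RPKM, with all 4 mice below those of Rraga and Rragb and above those of Rragc. Rragc at 16.8 ± 1.56, Rictor at 15.0 ± 1.43, Tsc1 at 14.9 ± 1.33, Rragd at 13.8 ± 1.87 and Tsc2 at 12.7 ± 0.763 RPKM formed a run in which each gene overlapped its neighbours. Mtor lay below them at 8.53 ± 0.392 RPKM and Rptor at 2.77 ± 0.128 RPKM, neither overlapping its neighbours.

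**Figure D1:**
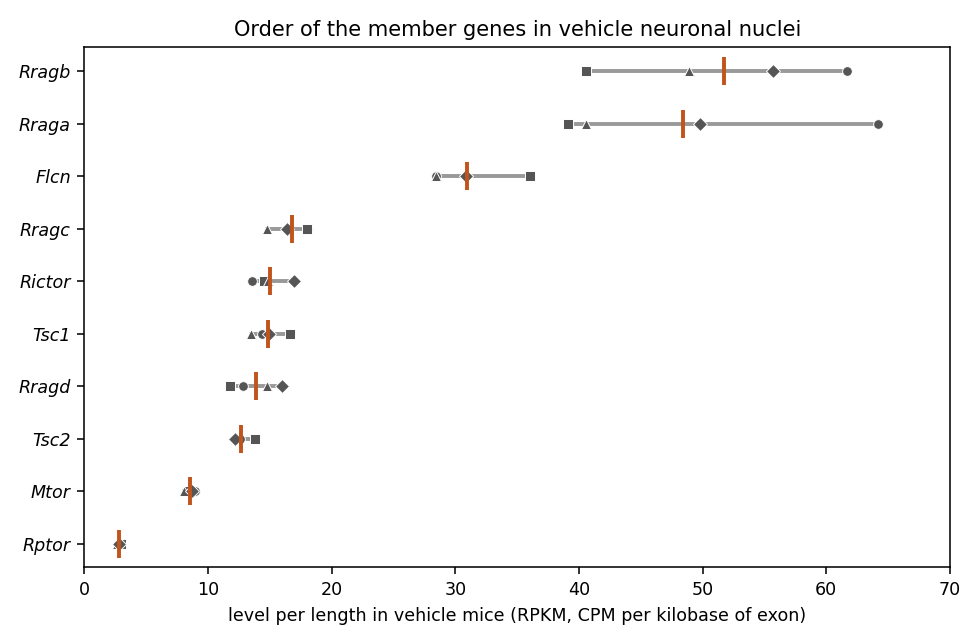
Levels per length of the 10 member genes in the 4 vehicle mice, in RPKM on a linear axis, ordered by their mean (orange tick), with 1 symbol per mouse and a grey bar over the range. Rragb and Rraga lie highest at means of 51.7 and 48.4 RPKM, and Rptor lies lowest at 2.77 RPKM.

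Rragb (ENSMUSG00000041658), on chromosome X from 153139981 to 153171943 with 11 merged exons, overlaps no other annotated gene. In vehicle mice 1 to 4 it had 139, 91.5, 110 and 126 CPM. At 24 h the values were 6.09, 6.10, 11.5 and 7.69 CPM, and at 48 h they were 2.61, 6.53, 10.7 and 6.38 CPM. All 8 of these mice lay far below the lowest vehicle mouse, and the counts behind the values were 40 to 91 at 24 h and 18 to 72 at 48 h against 805 to 1475 in vehicle. The difference of mean log2 CPM was -3.88 at 24 h and -4.24 at 48 h, that is 14.8-fold and 18.9-fold lower, well above the floor of 3 counts, which stood at 0.243 to 0.514 CPM over the mice.

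At 7 days, Rragb did not have 1 common level. Mice 1 and 3 had 119 and 67.6 CPM, and mice 2 and 4 had 5.49 and 9.51 CPM. Mouse 1 lay within the vehicle range, mouse 3 lay below it, and mice 2 and 4 lay within the range of the 24 h and 48 h mice. The mean was 50.3 ± 53.7 CPM (SD, n = 4), with an SD larger than the mean. The difference of mean log2 CPM from vehicle was -2.16, while the fold change fitted by edgeR, which compares mean counts, was -1.21 on the log2 scale.

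The same mice also stood apart in 2 measures of their libraries, the shares of counts on 18S and on mitochondrial genes. An 18S ribosomal RNA pseudogene (CT010467.1) took 0.00694% to 0.0101% of the counts in vehicle mice, 0.328% to 1.57% at 24 h and 0.523% to 1.66% at 48 h. At 7 days it took 0.00834% in mouse 1 and 0.00607% in mouse 3, against 0.633% in mouse 2 and 0.474% in mouse 4. The share of counts on mitochondrial genes was 0.0171% to 0.0701% in vehicle mice, 0.0621% to 0.101% at 24 h and 0.108% to 0.268% at 48 h. In 7 days mice 1 to 4 it was 0.0413%, 0.130%, 0.0210% and 0.114%, so mice 1 and 3 lay within the vehicle range and mice 2 and 4 above it. The group explained 67.9% of the variance of the 18S share, 56.8% of that of the mitochondrial share and 63.5% of that of total counts, which were 9151680 to 11517452 per vehicle mouse and 5834248 to 8090559 per mouse at 24 h and 48 h. The 7 days mice 1 to 4 had 12354785, 8704286, 8947588 and 6972577 counts, so that total counts did not split them into the same pairs: mouse 3 lay below every vehicle mouse and close to mouse 2. With the 18S share as a covariate, the fitted log2 change of Rragb was -2.62 at 24 h and -2.67 at 48 h. The share did not overlap between vehicle and the 24 h and 48 h mice, so that fit cannot tell share and group apart. Whether the 18S share has a part in the level of Rragb was not tested.

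**Figure D2:**
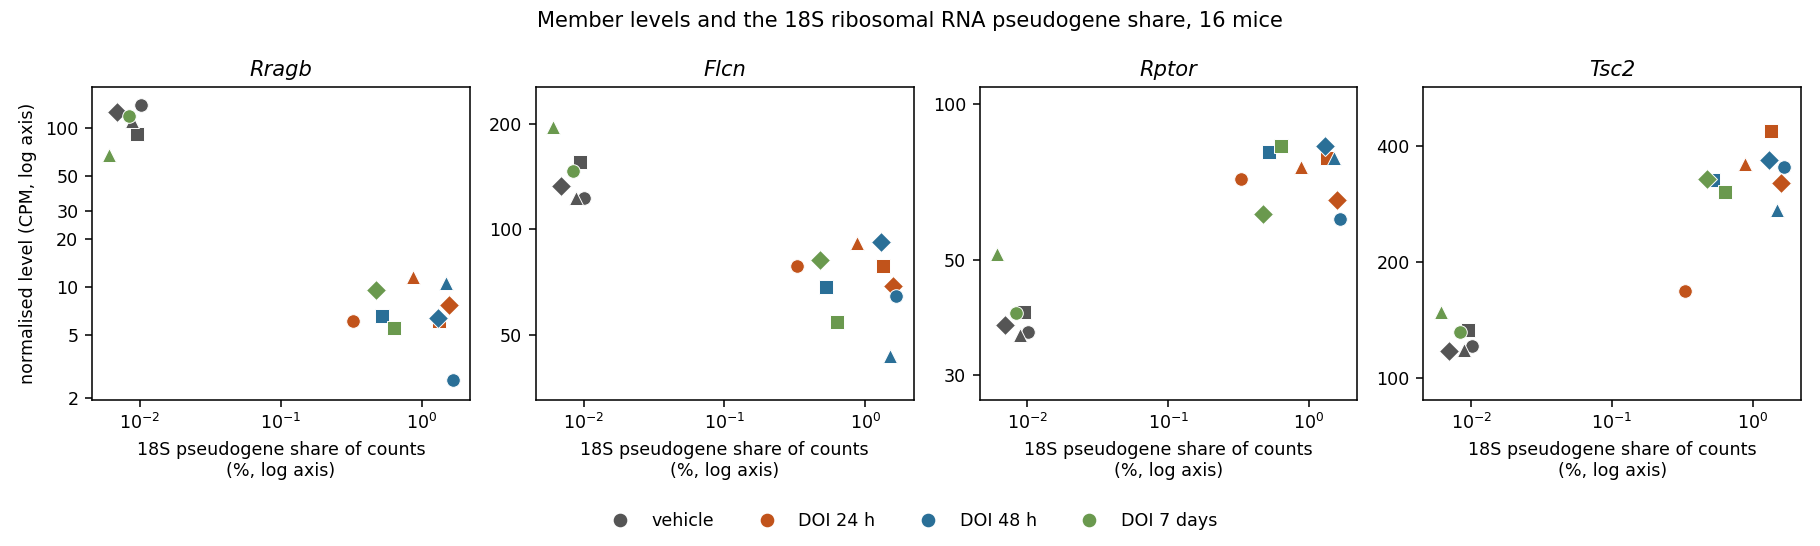
Level of Rragb, Flcn, Rptor and Tsc2 in CPM (log axis) against the share of counts on the 18S pseudogene in percent (log axis), 1 symbol per mouse, coloured by group, with symbol shapes for mice 1 to 4. Mice 1 and 3 of the 7 days group lie beside the vehicle mice at 0.00834% and 0.00607%, and mice 2 and 4 lie beside the 24 h and 48 h mice at 0.633% and 0.474%.

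Among the 9 members other than Rragb, DOI was followed at 24 h by more Mtor, Rptor and Tsc2 RNA and by less Rictor and Rragc RNA. At 48 h, Mtor, Rptor and Tsc2 were again higher, and Rictor, Rraga and Flcn were lower. In the quasi-likelihood test of edgeR, adjusted over all genes by the Benjamini-Hochberg method, 5 of the 9 passed an adjusted p of 0.05 at 24 h (3 higher, 2 lower) and 6 at 48 h (3 higher, 3 lower). Over all 17941 genes tested, 24.2% were called at 24 h (13.8% higher and 10.4% lower) and 30.1% at 48 h (16.8% higher and 13.3% lower), so calls were common in both comparisons, and the members were chosen with these results known. Of all 24 h calls, 57.0% were higher, and 67.3% were when libraries were scaled by total counts alone. The median log2 fold change of the 9 was 0.01 at 24 h and 0.12 at 48 h, against 0.03 and 0.02 over all genes.

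These counts changed when single mice were left out and when the 18S share was a covariate. Without vehicle mouse 2, vehicle mouse 3 or 24 h mouse 1, 3 members were called at 24 h, and without vehicle mouse 2, 3 were called at 48 h. Of all genes tested, 14.1%, 17.4% and 17.4% were called at 24 h without these mice in turn, and 19.4% at 48 h without vehicle mouse 2. With the 18S share as a covariate, edgeR called 0 of the 9 at 24 h and 0 at 48 h, with 3 at each time under an unadjusted p of 0.05, and it called 0 of all genes tested at both times, with 3398 and 2819 under that p. The share was at most 0.0101% in vehicle mice and at least 0.328% at 24 h and 48 h. Share and group can therefore not be told apart in these comparisons. The fitted log2 values under this covariate did not all shrink: Rragc at 24 h was -0.78 (edgeR adjusted p = 0.122) and Rraga at 48 h was -1.21 (0.245), both farther from 0 than without it. Rptor at 0.87 and 0.90 (edgeR adjusted p = 0.129 and 0.205), Rictor at -0.81 and -0.52 (0.149 and 0.416) and Mtor at 0.42 and 0.38 (0.319 and 0.497) kept most of their size, while Tsc2 and Flcn, given below, moved further towards 0. The mitochondrial share did not overlap between vehicle and 48 h mice either. With the mitochondrial share as a covariate, edgeR called 0 of the 9 members at 48 h (2 unadjusted), and it called 0 of all genes tested at that time (2720 unadjusted). The 48 h values were then 0.46 for Mtor, 0.63 for Rptor, 1.115 for Tsc2, -0.30 for Rictor, -0.62 for Rraga and -0.29 for Flcn, with edgeR adjusted p-values of 0.389, 0.278, 0.216, 0.639, 0.547 and 0.790.

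**Figure D3:**
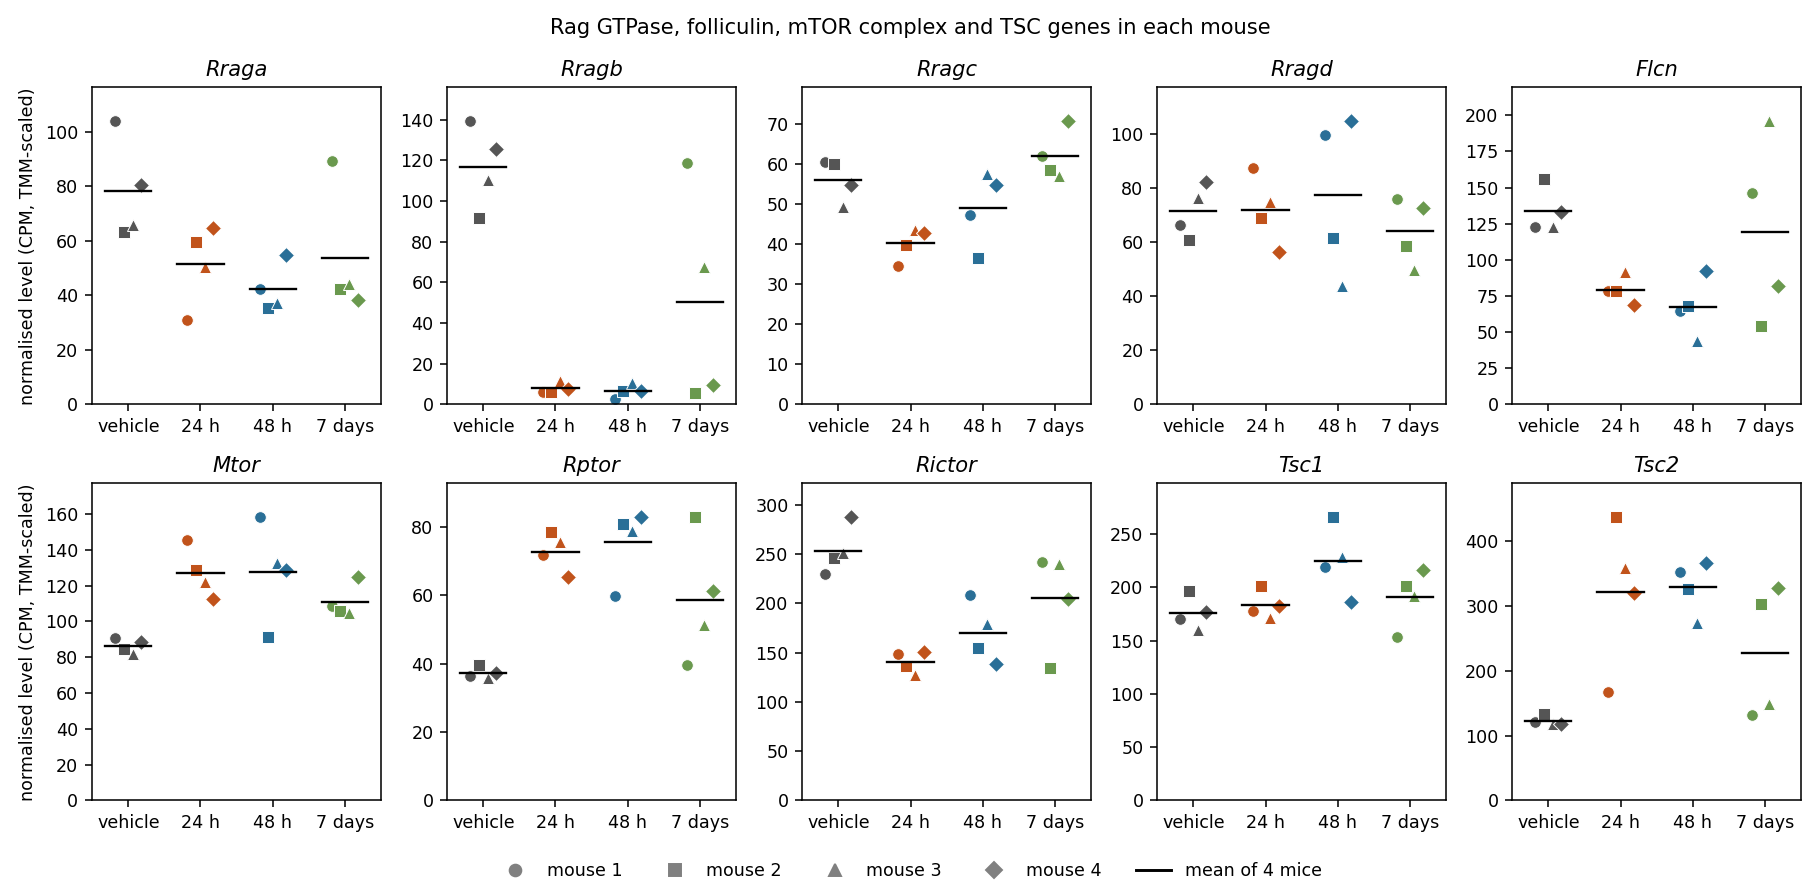
Normalised level in CPM (linear axis from 0) of each member gene in every mouse, by group, with 1 symbol shape per mouse number and a black line at the mean of 4 mice. Rragb lies between 91.5 and 139 CPM in vehicle and between 2.61 and 11.5 CPM at 24 h and 48 h, and its 7 days mice split into a high and a low pair.

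Rraga, the single-exon gene of RagA on chromosome 4 from 86575668 to 86577285, is the close paralog of Rragb. Vehicle mice 1 to 4 had 104, 63.3, 65.6 and 80.6 CPM. The values were 30.9, 59.5, 50.2 and 64.9 CPM at 24 h and 42.2, 35.2, 37.2 and 54.8 CPM at 48 h. The 24 h mice overlapped the vehicle range by mouse 4 alone, and the 48 h mice lay wholly below it. Rraga fell by 0.89 on the log2 scale at 48 h (SE 0.281, edgeR adjusted p = 0.0246), and its 24 h difference of -0.61 (SE 0.279) did not pass (edgeR adjusted p = 0.115), although it passed in limma with duplicateCorrelation over the 32 libraries (-0.62, adjusted p = 0.0211). The 48 h call was lost without vehicle mouse 1, 48 h mouse 2 or 48 h mouse 3, at edgeR adjusted p-values of 0.0894, 0.0712 and 0.0660.

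At 7 days, Rraga was at 89.4, 42.1, 44.1 and 38.3 CPM. Mouse 1 was at a vehicle level, while the other 3 lay below all vehicle mice. The log2 difference from vehicle of -0.55 (SE 0.278) did not pass (edgeR adjusted p = 0.328), and it was called without 7 days mouse 1 (-0.91, edgeR adjusted p = 0.0353). Reads that map to several copies are left out by the counter's default, so reads from stretches shared by Rraga and Rragb could be missing from both genes.

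The balance of the paralogs was read within each mouse, as the ratio of Rragb counts to Rraga counts, which does not depend on scaling between libraries. Its vehicle values were 1.34, 1.45, 1.68 and 1.56. It lay between 0.103 and 0.230 at 24 h and between 0.0619 and 0.287 at 48 h, with no overlap with vehicle. At 7 days it was 1.33 and 1.53 in mice 1 and 3 and 0.130 and 0.248 in mice 2 and 4. Rragb therefore had more counts than Rraga in every vehicle mouse and fewer in every mouse at 24 h and 48 h. Counts are not corrected for length here, and since Rragb chose the members, the ratio carries no test.

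Rragc, the gene of RagC on chromosome 4 from 123917446 to 123936997, was lower at 24 h. Vehicle mice had 60.5, 60.0, 49.4 and 54.8 CPM, and 24 h mice had 34.6, 39.9, 43.6 and 43.0 CPM, without overlap. It fell by 0.48 on the log2 scale (SE 0.173, edgeR adjusted p = 0.0494), and the difference was -0.20 at 48 h (edgeR adjusted p = 0.401) and 0.14 at 7 days (edgeR adjusted p = 0.697). The 24 h call was lost in 18 of 23 other settings, among them the removal of any of the 8 mice compared (edgeR adjusted p from 0.0577 to 0.118) and the replicate block (0.0688). Of its exon bases, 9.64% are shared with Gm12905 on the opposite strand, and counting took no account of strand.

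Rragd, the gene of RagD on chromosome 4 from 32983037 to 33022180, did not pass at any time. Its range was 61.1 to 82.5 CPM in vehicle, 56.6 to 87.4 CPM at 24 h, 43.9 to 104.9 CPM at 48 h and 49.7 to 76.0 CPM at 7 days, and every DOI range overlapped that of vehicle. The log2 differences were 0.01, 0.12 and -0.15 with SEs of 0.242, 0.242 and 0.241, and the sign at 24 h and 48 h changed with the setting. The ratio of Rragd to Rragc counts overlapped vehicle at all 3 times. Rragd is itself a known target gene of the MiT/TFE factors.

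Flcn, the folliculin gene on chromosome 11 from 59791408 to 59810016 on the minus strand, was lower at 48 h. Vehicle mice had 123, 156, 123 and 133 CPM, 24 h mice had 78.6, 78.4, 91.4 and 68.9, and 48 h mice had 64.5, 68.3, 43.6 and 92.4. Both DOI groups lay wholly below vehicle. Flcn fell by 0.99 on the log2 scale at 48 h (SE 0.299, edgeR adjusted p = 0.0197), and the 24 h difference of -0.75 (SE 0.298) did not pass in edgeR (adjusted p = 0.0696). It passed in edgeR when only the groups compared were fitted (adjusted p = 0.00194) or without the filter on low counts (0.0134), and in limma with voom quality weights (0.00761) or duplicateCorrelation over the 32 libraries (0.0136). The 48 h call was lost without vehicle mouse 2 (edgeR adjusted p = 0.0565) or 48 h mouse 3 (0.0660), and with the 18S or mitochondrial share as a covariate its 48 h value was -0.30 or -0.29.

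The 7 days mice had 146, 54.5, 196 and 81.6 CPM of Flcn. Mice 1 and 3 were within or above the vehicle range and mice 2 and 4 below it, which is the same pair split as for Rragb. The group mean of 120 ± 63.9 CPM (SD, n = 4) gave a log2 difference of -0.16 from vehicle (edgeR adjusted p = 0.816).

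Mtor, the kinase gene on chromosome 4 from 148448611 to 148557683, rose at 24 h and 48 h. Its level was 90.5, 84.7, 81.5 and 88.3 CPM in vehicle, 146, 129, 122 and 113 at 24 h, and 158, 91.1, 133 and 129 at 48 h. No DOI mouse at these times lay within the vehicle range, although 48 h mouse 2 was just above it. The rise was 0.56 on the log2 scale at 24 h (SE 0.166, edgeR adjusted p = 0.0221) and 0.57 at 48 h (edgeR adjusted p = 0.0176), that is 1.47-fold and 1.48-fold. At 7 days, all 4 mice, at 105 to 125 CPM, were above vehicle, but the difference of 0.36 did not pass (edgeR adjusted p = 0.272). The 24 h call was lost without vehicle mouse 2, vehicle mouse 3 or 24 h mouse 1 (edgeR adjusted p from 0.0570 to 0.0613) and the 48 h call without vehicle mouse 2 (0.0506) or 48 h mouse 1 (0.0690). Both calls were also lost without the filter on low counts (edgeR adjusted p = 0.116 and 0.119) and with the mitochondrial share as a covariate (0.0606 and 0.389).

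Rptor encodes raptor, the scaffold by which mTOR complex 1 meets the Rag GTPases and its substrates, and lies on chromosome 11 from 119602905 to 119899576. Vehicle mice had 36.3, 39.7, 35.9 and 37.4 CPM. The level was 71.6, 78.4, 75.4 and 65.2 CPM at 24 h and 59.8, 80.7, 78.7 and 82.7 CPM at 48 h. All 8 mice were far above the vehicle range, whose spread was narrow. Rptor rose by 0.96 on the log2 scale at 24 h (SE 0.198, edgeR adjusted p = 0.00395) and by 1.02 at 48 h (SE 0.198, edgeR adjusted p = 0.00242), which is 1.95-fold and 2.02-fold.

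Of the 7 days mice, mouse 1 had 39.5 CPM of Rptor, within the vehicle range, and mice 2, 3 and 4 had 82.7, 51.3 and 61.1 CPM, above it. The difference of 0.65 did not pass in edgeR (adjusted p = 0.122) and was called without 7 days mouse 1 (0.81, edgeR adjusted p = 0.0183). Its exons share 0.62% of their bases with Rptoros on the opposite strand.

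Rictor encodes the scaffold of mTOR complex 2 and lies on chromosome 15 from 6708379 to 6800401. It moved the opposite way to Rptor. Vehicle mice had 230, 246, 251 and 287 CPM, 24 h mice 149, 136, 127 and 151, and 48 h mice 208, 154, 180 and 139, all below vehicle. At 24 h, Rictor fell by 0.85 on the log2 scale (SE 0.188, edgeR adjusted p = 0.00555), and at 48 h it fell by 0.58 (SE 0.187, edgeR adjusted p = 0.0280). At 7 days, 3 mice at 204, 240 and 242 CPM were near or within the vehicle range and mouse 2 was at 135 CPM. The 48 h call was lost without vehicle mouse 2 or 4 (edgeR adjusted p = 0.0506 and 0.0747) and without 48 h mouse 2 or 4 (0.0715 and 0.0723).

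The ratio of Rictor to Rptor counts within a mouse set the scaffolds of the 2 mTOR complexes against each other. It was 6.34, 6.21, 7.00 and 7.69 in vehicle, 2.08, 1.74, 1.69 and 2.31 at 24 h, and 3.48, 1.92, 2.28 and 1.68 at 48 h. At 7 days it was 6.11, 1.63, 4.69 and 3.34. The vehicle range did not overlap that of any DOI group, although 7 days mouse 1 came close to it. No test was run on the ratio, which follows from the changes of both genes above.

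Tsc2 encodes tuberin, the GTPase-activating subunit by which the TSC complex turns Rheb off, and lies on chromosome 17 from 24595816 to 24632630 on the minus strand. Its rise was the largest among the members at 24 h and 48 h, except with the 18S share as a covariate, where that of Rptor was larger (0.87 and 0.90). The level was 121, 133, 118 and 117 CPM in vehicle, 167, 436, 358 and 319 at 24 h and 352, 325, 273 and 366 at 48 h, without overlap, 24 h mouse 1 being the lowest of the 24 h and 48 h mice. The rise was 1.39 at 24 h (SE 0.289, edgeR adjusted p = 0.00407) and 1.43 at 48 h (SE 0.289, edgeR adjusted p = 0.00280) on the log2 scale, that is 2.62-fold and 2.69-fold. With the 18S share as a covariate the values were 0.66 and 0.63, which did not pass (edgeR adjusted p = 0.318 and 0.416).

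The 7 days mice had 132, 302, 148 and 327 CPM of Tsc2, so that mice 1 and 3 were near vehicle and mice 2 and 4 near the 24 h and 48 h mice. The difference of 0.89 did not pass in edgeR (adjusted p = 0.136), and it was called without 7 days mouse 1 (1.09, edgeR adjusted p = 0.0253) or 7 days mouse 3 (1.06, 0.0377). Of the exon bases of Tsc2, 7.2% are shared with Pkd1 on the opposite strand. By the counter's default, reads that overlap exons of both genes could be missing from both.

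Tsc1 encodes hamartin, the partner that stabilises tuberin, and lies on chromosome 2 from 28641228 to 28691167. Its level was 170, 197, 160 and 177 CPM in vehicle, 177, 202, 172 and 183 at 24 h, and 219, 266, 228 and 187 at 48 h. The 24 h mice spanned nearly the vehicle range, and 3 of the 48 h mice were above it. The differences of 0.06 at 24 h (SE 0.157) and 0.35 at 48 h (SE 0.157) did not pass in edgeR (adjusted p = 0.807 and 0.0932). The 48 h difference passed in DESeq2 (adjusted p = 0.0487), in limma with voom quality weights (0.0276) or duplicateCorrelation (0.0383), and in edgeR with libraries scaled by total counts alone (0.0456). The ratio of Tsc1 to Tsc2 counts was 1.36 to 1.51 in vehicle. Its range was 0.462 to 1.06 at 24 h, then 0.510 to 0.837 at 48 h, and at 7 days mice 2 and 4 had 0.667 and 0.662 while mice 1 and 3 were higher, with no overlap between vehicle and any DOI group.

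**Figure D4:**
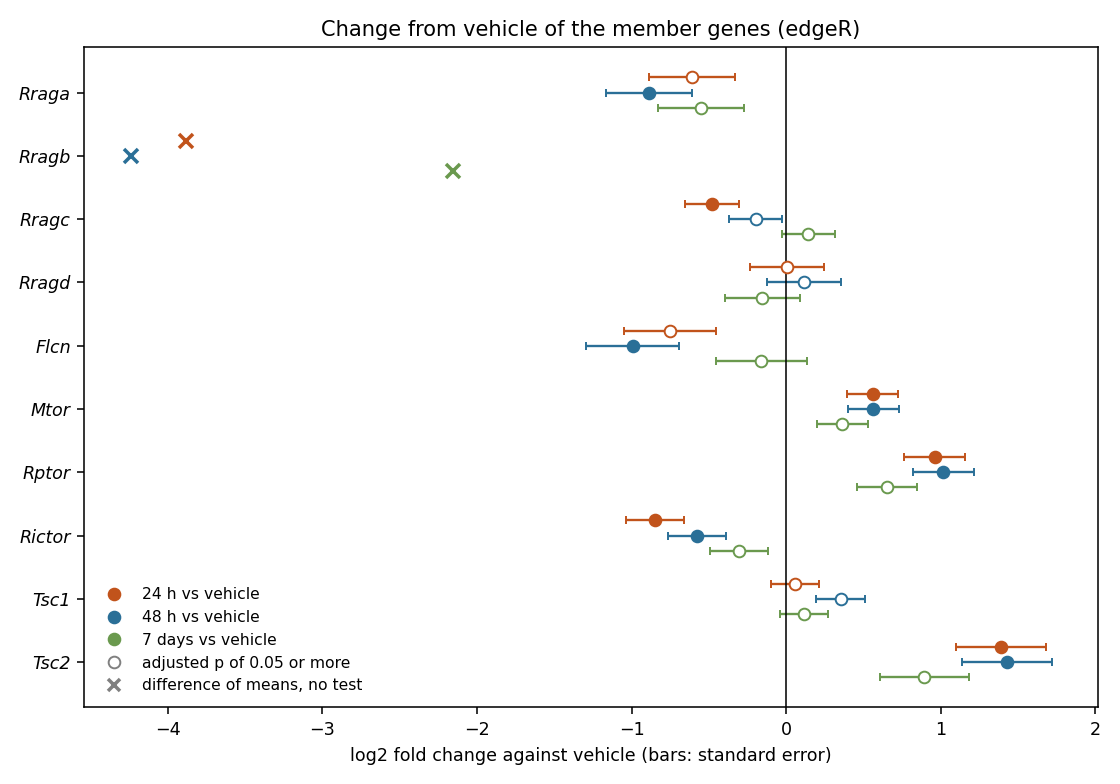
Log2 fold change of each member gene against vehicle at 24 h, 48 h and 7 days, with bars of 1 standard error from edgeR. Filled circles passed an adjusted p of 0.05, open circles did not, and crosses mark the differences of mean log2 CPM of Rragb, for which no test was run. Tsc2 lies farthest right at 1.39 and 1.43, and Rragb farthest left at -3.88 and -4.24.

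At 7 days against vehicle, 0 of the 9 members passed in edgeR, with 3 (Mtor, Rptor and Tsc2) at an unadjusted p under 0.05, and DESeq2 called 2 (Rptor and Tsc2). The background was 0% of all genes in edgeR, with 3012 genes under that unadjusted p, and DESeq2 called 734 genes higher and 62 lower. Between 48 h and 24 h, edgeR called 0 members (0 unadjusted, and 0 by DESeq2) against a background of 0%. Between 7 days and 48 h it called 0 members (1 unadjusted, Flcn, and 0 by DESeq2), with 0% of all genes called by edgeR and 2.26% by DESeq2. Leaving out 7 days mouse 1 gave 3 members called at 7 days against vehicle and leaving out 7 days mouse 3 gave 1, with 7.26% and 6.28% of all genes called. Leaving out 7 days mouse 2 gave 1 called between 7 days and 48 h, with 2.14% of all genes called.

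Over the 16 mice and 12793 genes whose log2 CPM averaged 2 or more, the profiles most like that of Rragb were those of Dlat (Pearson's r = 0.976), Arhgef2 (0.970) and Nars (0.969), and the most opposite were those of Tcf20 (-0.980), Amt (-0.978) and Bdh1 (-0.976). These are descriptions over mice that share groups, depth and the 18S share, with no test. Tcf20, which encodes a nuclear coregulator, had 9.35 to 12.4 CPM in vehicle and 105 to 167 CPM at 24 h and 48 h, and its 7 days mice had 10.2, 94.4, 11.7 and 98.8 CPM. Dlat, which encodes a subunit of pyruvate dehydrogenase, had 90.9 to 116 CPM in vehicle and 39.1 to 56.3 at 24 h and 48 h, and 109, 51.2, 90.0 and 70.7 at 7 days. Arhgef2, Nars, Amt and Bdh1 likewise had mice 1 and 3 of the 7 days group nearer to vehicle than mice 2 and 4. Of the members, Flcn (0.821), Rictor (0.802) and Rraga (0.721) had the highest r with Rragb, and Rptor (-0.905), Tsc2 (-0.898) and Mtor (-0.753) the lowest, while Rragd (-0.149) was nearest to 0. Among the 12793 genes, Flcn, Rictor and Rraga ranked 1105, 1332 and 2316 from the highest. Rptor, Tsc2 and Mtor ranked 475, 535 and 1916 from the lowest.

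The other genes of the pathway were taken from a list of 66 in 10 functional groups, of which 63 were tested (Prr5, Ddit4 and Tfeb had too few counts). At 24 h, 20 passed in edgeR (9 higher, 11 lower) and at 48 h 26 passed (11 higher, 15 lower), against the 24.2% and 30.1% of all genes given above. The median log2 fold change of the list was -0.22 and -0.27, against 0.03 and 0.02 over all genes. At 7 days 0 passed in edgeR (13 unadjusted, 3 by DESeq2), as between 48 h and 24 h (1 unadjusted, 0 by DESeq2) and between 7 days and 48 h (11 unadjusted, 1 by DESeq2). With the 18S share as a covariate, edgeR called 0 of the list at 24 h and at 48 h, with 11 and 8 under an unadjusted p of 0.05. Single mice moved the 24 h count to between 10 and 13 (each vehicle mouse, 24 h mouse 2 and 24 h mouse 4) and the 48 h count to 15 without vehicle mouse 2 and to 16 without 48 h mouse 2. In the same fits, 13.9% to 18.6% of all genes were called at 24 h, and 19.4% and 20.2% at 48 h. With the mitochondrial share as a covariate, 7 of the list were called at 24 h and 0 at 48 h (11 unadjusted), against 12.6% and 0% of all genes.

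Upstream of the Rag GTPases lies Ragulator, the scaffold that anchors them. Of its 5 genes, 0 passed in edgeR at 24 h or 48 h (0 at an unadjusted p under 0.05 and a smallest adjusted p of 0.195 and 0.145), and Lamtor2 differed by -0.45 and -0.49. With 24.2% and 30.1% of all genes called, a count of 0 among 5 genes is near the background. In GATOR1, which turns RagA and RagB off, and KICSTOR, which anchors GATOR1, 1 of 6 passed at 24 h and 4 of 6 at 48 h (2 higher, 2 lower). In GATOR2, which restrains GATOR1, the same count of 2 of 5 passed at both times, both lower: Seh1l fell by 0.75 and by 0.86 on the log2 scale (edgeR adjusted p = 0.0241 and 0.0106), and Sec13 fell by 0.51 and by 0.78 (0.0451 and 0.00546). Both encode proteins that are also part of the nuclear pore.

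Of 6 amino acid sensor genes, 2 passed at 24 h (1 higher, 1 lower) and 4 at 48 h (3 higher, 1 lower). The shares over all genes tested were 24.2% and 30.1%. Sesn3, whose product binds GATOR2, rose 2.09-fold (edgeR adjusted p = 0.0217) and 2.21-fold (0.0129). Its vehicle mice had 34.7 to 50.0 CPM, and its 7 days mice had 49.7, 120, 33.7 and 123 CPM, the higher values again being those of mice 2 and 4. Of the folliculin partners, Fnip2 rose by 0.78 on the log2 scale at 24 h (edgeR adjusted p = 0.0488) from a low level of 6.05 CPM and did not pass at 48 h (0.69, 0.0669).

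At the level of Rheb and the kinases above it, Rheb, the direct activator of mTOR complex 1, was lower. It fell by 0.60 on the log2 scale at 24 h (SE 0.194, edgeR adjusted p = 0.0316) and by 0.83 at 48 h (SE 0.195, edgeR adjusted p = 0.00600), from 173 to 221 CPM in vehicle to 97.8 to 146 at 24 h and 88.7 to 127 at 48 h. Rhebl1 and Tbc1d7, the other 2 genes of its group, did not pass. Of 11 tested upstream kinases and inhibitors, 5 passed at 24 h (3 higher, 2 lower) and 7 at 48 h (3 higher, 4 lower), against 24.2% and 30.1% of all genes. Stk11, which encodes LKB1, the kinase that activates AMPK, rose 2.37-fold and 2.49-fold (edgeR adjusted p = 0.00203 and 0.00155). Its 7 days mice, at 16.9, 24.7, 19.3 and 22.1 CPM, were all above the vehicle range of 8.86 to 11.6 CPM, but 7 days did not pass (0.99, edgeR adjusted p = 0.0960).

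Among the other mTOR complex and assembly genes, 3 of 8 passed at 24 h (2 higher, 1 lower) and 2 of 8 at 48 h (1 higher, 1 lower). That is 37.5% and 25%, against 24.2% and 30.1% of all genes. Tti2, whose product helps fold and assemble mTOR-like kinases, rose 1.79-fold (edgeR adjusted p = 0.00766) and 2.05-fold (0.00235), and 14.59% of its exon bases are shared with Mak16 on the opposite strand. Downstream, 4 of 15 substrates and effectors passed at 24 h, all lower, and 5 of 15 at 48 h (1 higher, 4 lower). These counts, 26.7% and 33.3% of the group, were near the shares of all genes. Eif4e, the cap-binding factor freed when mTOR complex 1 acts on its inhibitors, fell by 0.72 and by 0.89 (edgeR adjusted p = 0.00968 and 0.00282). Sgk1, a kinase activated by mTOR complex 2, fell by 0.93 and by 0.91 (edgeR adjusted p = 0.00817 and 0.00726). Of the MiT/TFE factors, Tfe3 did not pass and Mitf rose 3.37-fold and 2.65-fold (edgeR adjusted p = 0.0157 and 0.0354) from a low mean of 1.71 CPM in vehicle to 5.80 and 4.57 CPM.

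**Figure D5:**
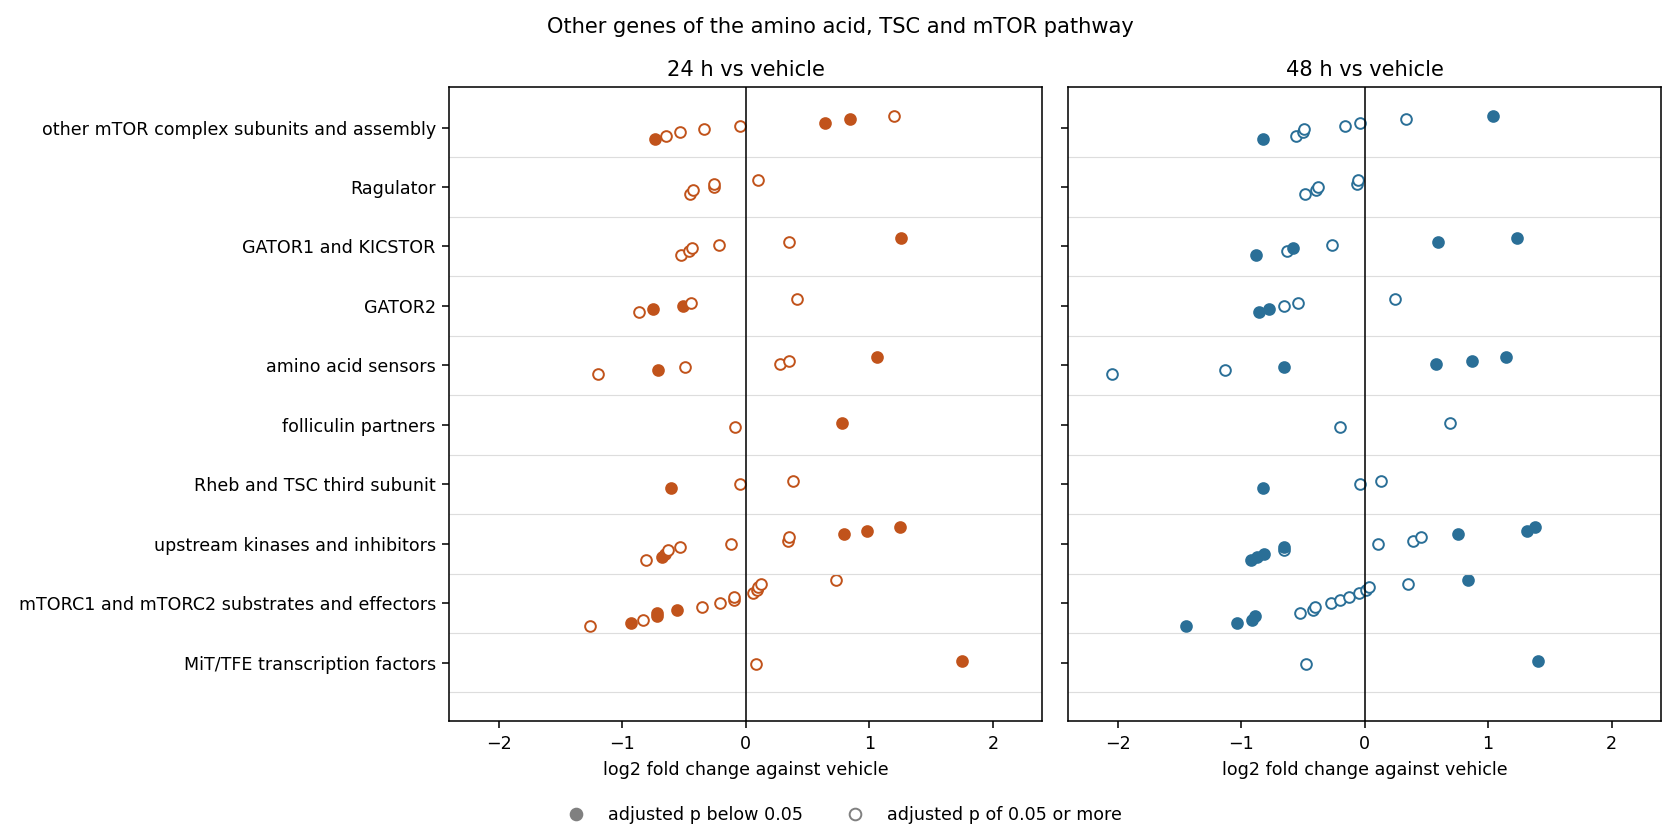
Log2 fold change against vehicle at 24 h (left) and 48 h (right) of the 63 tested pathway genes, 1 circle per gene, by functional group, filled where the edgeR adjusted p was below 0.05. Of the 63 genes, 20 are filled at 24 h and 26 at 48 h.

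Cell type markers were read beside these results. All 6 neuron markers were detected in every mouse, with a summed level of 5985 to 6310 CPM in vehicle mice. At 24 h the sum was 4034 to 5931 CPM, at 48 h it was 3669 to 5847 CPM, and the 7 days mice had 4515 to 6244 CPM. The 6 astrocyte markers summed to 622 to 690 CPM in vehicle, 704 to 1099 CPM at 24 h, 604 to 1049 CPM at 48 h and 440 to 713 CPM at 7 days, and Gfap was at 0 in 7 mice. The 5 oligodendrocyte markers summed to 148 to 325 CPM in vehicle and 148 to 341 CPM in the DOI mice. For the 5 microglia markers the sum was 68.6 to 106 CPM in vehicle and 40.0 to 83.8 CPM at 24 h. It was 44.5 to 74.0 CPM at 48 h and 49.0 to 121 CPM at 7 days. The medians of the microglia sum were 98.9, 65.6, 61.7 and 82.2 CPM in this order. The 3 oligodendrocyte precursor markers stayed between 6.09 and 20.2 CPM and the 3 endothelial markers between 0 and 5.03 CPM, with Cldn5 at 0 in 10 mice. The 6 striatal projection neuron markers summed to 182 to 316 CPM in vehicle, 120 to 218 CPM at 24 h, 187 to 406 CPM at 48 h and 287 to 1289 CPM at 7 days. Such sums are weighted towards their most abundant markers. Over all mice, Penk alone had 67.9 to 941 CPM, Slc1a2 307 to 922 CPM and Snap25 2043 to 4334 CPM, while Adora2a was at 0 in 9 mice. The part of these differences in the results was not tested, and in such bulk samples fewer cells of a type and less RNA per cell cannot be told apart.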

How the data were processed

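RNA-seq of NeuN-positive nuclei of the frontal cortex was analysed in 16 mice, 4 per group, with 2 libraries per mouse. Gene-level raw counts were deposited, made by the authors with featureCounts 2.0.0 over GRCm38 exons, per the file headers, with default handling of strand, multi-mapping and overlaps. The aligner of these libraries is not given in the sources used here. Counts of a mouse's libraries were summed (5834248 to 12354785 per mouse). Genes were filtered with filterByExpr, TMM-scaled and tested in 1 edgeR 4.0.16 fit over the 4 groups (R 4.3.3), with Benjamini-Hochberg adjustment, and the procedure was tested on simulated data. CPM values are TMM-scaled, log2 CPM used a prior count of 2, and RPKM divided CPM by exon length. DESeq2 1.42.0, limma 3.58.1 and other settings were alternatives.

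The members and lists were chosen with earlier results of these data known. Pathway genes named are, in each functional group, those of the smallest edgeR p at 24 h and at 48 h, and genes like Rragb are the 3 of highest and 3 of lowest r. A gene that this rule names is not reported here. In 3 mice (mouse 1 at 24 h, mouse 2 at 48 h, mouse 2 at 7 days) the file header has number 6, and the labels' numbers were used. The 2 libraries of a mouse had r of 0.960 to 0.989 across genes. Without molecular identifiers, the floor of 3 counts covers counting error alone. The 52 H3K27ac and input samples were not analysed here.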

Additional observations from a re-analysis of the deposited data

Results flagged for a closer look

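Rraga in 7 days mouse 1 was at 89.4 CPM, while the nearest of the other 3 mice of its group was at 44.1 CPM. This mouse was far from the others of its group by Dixon's criterion for 4 samples. The criterion was applied to 40 groups (10 members in 4 groups), of which chance would mark about 2. The same mouse had 119 CPM of Rragb and an 18S pseudogene share of 0.00834%, both near vehicle values, and the cause was not tested.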

How the results depend on the processing

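Over the 27 fold changes of the members other than Rragb, other settings kept the direction and the call in 354 of 405 cases, ended a call in 30, added a call in 12 and changed the sign in 9, and leaving out a mouse did so in 183, 22, 4 and 7 of 216 cases. A call could end only for the 5 members called at 24 h and the 6 called at 48 h. The cases kept therefore include differences that passed in neither fit. With the 18S share as a covariate, 0 members and 0 pathway genes were called at 24 h and at 48 h, and Rragb differed by -2.62 and -2.67. With the mitochondrial share, 0 members and 0 pathway genes were called at 48 h (2 and 11 unadjusted) and 7 pathway genes at 24 h, against 0% and 12.6% of all genes, and Rragb differed by -3.34 at 48 h. At 7 days against vehicle, DESeq2 called 2 members and 3 pathway genes, the fit without a filter on low counts 1 and 3, and 32 libraries with duplicateCorrelation 3 pathway genes, with 4.44%, 2.62% and 2.27% of all genes called. Between 7 days and 48 h, DESeq2 called 1 pathway gene, no filter 1 member and 2 pathway genes, and duplicateCorrelation 1 member and 6 pathway genes, with 2.26%, 1.82% and 7% of all genes called. Without 24 h mouse 1 and 48 h mouse 1, a setting chosen after seeing the data, 13 pathway genes and 18.3% of all genes were called at 24 h. Leaving out 1 mouse at a time gave 3 to 4 called members at 24 h, 3 to 6 called at 48 h, 0 to 3 called at 7 days and 0 to 1 between 7 days and 48 h, and for the pathway list 10 to 18, 15 to 26, 0 to 6 and 0 to 1. Of all genes, 13.9% to 21.2%, 19% to 26.4%, 0% to 7.26% and 0% to 2.37% were called in these fits.

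All sign changes were of differences near 0 that no setting called. Rragd at 24 h, 0.01, became -0.0932 with voom quality weights, -0.0359 without a filter, -0.0247 with library 2 alone, -0.0169 with duplicateCorrelation, -0.0950 without 24 h mouse 1 and 48 h mouse 1, -0.0985 without the 3 mice with another number in the header, and -0.0959 to 0.0977 with 1 mouse left out. Rragd at 48 h, 0.12, became -0.0881 with voom, -0.0246 without 24 h mouse 1 and 48 h mouse 1, and -0.0812 to 0.307 with 1 mouse left out. Flcn at 7 days, -0.16, became 0.0807 without the 3 mice and ranged from -0.504 to 0.0725 with 1 mouse left out. The cause of these changes was not tested. Scaling by total counts alone moved the median change over all genes to 0.14 at 24 h and 0.12 at 48 h, moved the share of higher calls from 57.0% to 67.3% and ended the calls of Rragc at 24 h and Rictor at 48 h.

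Mice that share a number across groups were separate animals, so the main fit did not pair them. By the labels' numbers, the mean correlation of what remained after subtracting each group's mean was -0.036 over 24 pairs. Single pairs had -0.282 to 0.244, and 6 were over 0.1. Whether mice of a number were processed together was not tested. The replicate block gave 4 members called at 24 h and 6 at 48 h, and 17 and 22 pathway genes, against 20.4% and 26% of all genes. The call it ended among the members was that of Rragc at 24 h.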
